A study of Mus musculus with 8 samples.

Results

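The region described here is chr4:145000001-148000000 (build GRCm38), a stretch of mouse DNA crowded with zinc finger genes, mapped for trimethylation of histone H3 at lysine 36 (H3K36me3) by chromatin immunoprecipitation and sequencing (ChIP-seq). Its members are the H3K36me3 peaks that overlap these 3 Mb in the lists called against Input, the chromatin sequenced without an antibody. They number 354 and 373 in the WT libraries and 504 and 499 in the KO libraries, or 1730 of 771051 peaks in all. WT cells were bone marrow stromal cells of Setd2 fl/fl mice of the C57BL/6J strain that had received a lentivirus for GFP, and KO cells were the same kind of cells given a lentivirus for Cre recombinase, which deletes the floxed part of Setd2. Cells of both groups were at passage 2 and were kept under puromycin (2 µg/ml, 4 days) to select infected cells, and each group had 2 H3K36me3 libraries. The animals' age and number, the promoter that drives Cre, the share of cells that were recombined and whether the libraries of a group came from separate cultures were not stated in the labels. All cells carry the floxed allele. The region was chosen by measured values, the high KO coverage of zinc finger genes such as Zfp991 and Zfp992 in these same lists. All KO and WT values below are therefore a description with no test, and 2 libraries against 2 could in any case not give an exact two-sided permutation p under 0.333. Coverage means the percent of a span that lies under peaks, and means are given ± SD (n = 2 libraries).

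H3K36me3 is placed on the bodies of transcribed genes by Setd2, which travels with RNA polymerase II. Mouse zinc finger genes of the KRAB type code for DNA-binding repressors, many of which recruit the corepressor TRIM28 to retrotransposons, and they lie in clusters that grew by tandem duplication. Bodies of such genes are known for carrying H3K36me3 together with the silencing mark H3K9me3. Of 92 annotated genes that overlap the region, 28 are protein-coding. Of these, 17 carry a zinc finger name (symbols starting with Zfp, and Rex2), 11 do not, and the other 64 annotations are pseudogenes and non-coding genes. The label of a zinc finger cluster therefore holds for the 2338 kb from Zfp990 to Zfp933 (145510759 to 147849126), which is called the zinc finger part below. The 511 kb to its left and the 151 kb to its right hold other genes.

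Many of the starts of these genes are alike. RefSeq promoter windows of GRCm38.p6 were found for 13 of the 17 zinc finger genes. Of these 13 genes, 11 (84.6%) had a run of 50 identical bases in the 250 bases before a start in common with another protein-coding gene, beside 48 of 386 zinc finger genes elsewhere (12.4%) and 15.9% of all 17492 protein-coding genes with a window. The 250 bases before the start are shown for 3 sets of genes, since values of single genes may depend on how reads from like copies were placed. That was not tested, and the bodies of the genes were not compared. These are transcript starts of the table, which for Rex2, Zfp984 and Gm13212 lie inside the annotated span of the gene. Capitals mark the longest run that all members of a set share. Zfp600 (chr4:146156577-146156826, plus strand), Rex2 (chr4:147021600-147021849, plus strand) and Zfp979 (chr4:147642509-147642758, minus strand) share 93 bases. Zfp600 and Rex2 are the same at 246 of 250 positions. Zfp987 (chr4:146097062-146097311, plus strand) and Zfp534 (chr4:147702632-147702881, minus strand) share 91 bases. Gm13212 (chr4:145584950-145585199, plus strand) and Zfp984 (chr4:147809789-147810038, minus strand), near opposite ends of the cluster, share 66 bases. No promoter window of another protein-coding gene held any of the 3 runs on either strand.
Zfp600: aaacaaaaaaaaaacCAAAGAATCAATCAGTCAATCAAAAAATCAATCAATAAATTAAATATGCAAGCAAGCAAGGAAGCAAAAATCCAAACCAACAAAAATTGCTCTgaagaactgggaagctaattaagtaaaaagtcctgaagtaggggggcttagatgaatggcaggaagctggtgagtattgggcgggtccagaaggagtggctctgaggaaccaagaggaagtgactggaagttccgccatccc
Rex2: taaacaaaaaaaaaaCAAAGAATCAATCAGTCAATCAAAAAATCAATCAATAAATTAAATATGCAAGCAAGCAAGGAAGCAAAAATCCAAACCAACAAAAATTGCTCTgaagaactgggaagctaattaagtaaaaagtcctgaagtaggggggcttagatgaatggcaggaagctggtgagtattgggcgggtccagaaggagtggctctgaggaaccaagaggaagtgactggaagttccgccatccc
Zfp979: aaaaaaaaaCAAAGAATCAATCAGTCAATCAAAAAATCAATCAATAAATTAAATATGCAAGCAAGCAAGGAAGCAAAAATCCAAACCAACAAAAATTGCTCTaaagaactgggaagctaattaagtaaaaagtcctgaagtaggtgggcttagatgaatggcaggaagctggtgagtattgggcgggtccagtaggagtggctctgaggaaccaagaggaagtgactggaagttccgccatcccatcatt
Zfp987: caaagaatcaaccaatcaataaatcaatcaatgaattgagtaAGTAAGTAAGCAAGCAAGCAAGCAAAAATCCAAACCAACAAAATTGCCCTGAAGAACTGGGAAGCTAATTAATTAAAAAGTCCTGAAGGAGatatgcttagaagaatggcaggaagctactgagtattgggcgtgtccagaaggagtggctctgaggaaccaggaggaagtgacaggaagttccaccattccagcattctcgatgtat
Zfp534: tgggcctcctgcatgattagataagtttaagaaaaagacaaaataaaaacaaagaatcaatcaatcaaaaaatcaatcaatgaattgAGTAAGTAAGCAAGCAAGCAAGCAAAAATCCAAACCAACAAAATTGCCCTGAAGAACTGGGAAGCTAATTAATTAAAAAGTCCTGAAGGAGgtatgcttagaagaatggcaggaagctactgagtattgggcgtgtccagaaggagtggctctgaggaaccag
Gm13212: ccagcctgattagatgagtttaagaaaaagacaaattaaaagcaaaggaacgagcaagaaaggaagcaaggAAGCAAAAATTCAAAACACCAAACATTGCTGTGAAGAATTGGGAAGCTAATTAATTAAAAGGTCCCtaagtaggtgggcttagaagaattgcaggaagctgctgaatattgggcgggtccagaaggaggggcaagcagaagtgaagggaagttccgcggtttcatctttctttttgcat
Zfp984: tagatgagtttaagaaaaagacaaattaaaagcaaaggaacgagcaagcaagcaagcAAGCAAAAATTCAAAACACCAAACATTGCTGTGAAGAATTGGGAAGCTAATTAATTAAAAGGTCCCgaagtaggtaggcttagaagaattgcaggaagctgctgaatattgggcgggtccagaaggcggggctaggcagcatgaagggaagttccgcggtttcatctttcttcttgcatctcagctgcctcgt

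Peaks over some of these starts, but not all, differed between replicates of a group. Of the 300 bases around the start of Zfp600 printed above a peak touched some in KO replicate 2 only, and of those around the start of Rex2 in KO replicate 1 only, although the printed sequences are nearly the same. No Input list had a peak over the starts of Zfp979, Zfp987, Zfp534, Zfp984 or Zfp933, and Gm13212 had one in WT replicate 2 only. A start of Zfp982 (window chr4:147492167-147492466) had a peak in both WT libraries and in neither KO library, with each control. Values of single genes below are uncertain where reads fit several copies, since the treatment of such reads is not known here.

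The zinc finger part was covered about as much in KO as in WT, and the flanks far less. Coverage of the zinc finger part was 13.9% and 13.7% in WT, versus 15.9% and 16.9% in KO, so both KO libraries lay above both WT libraries (13.8% ± 0.148 and 16.4% ± 0.712, with a KO to WT ratio of 1.19). In the left flank it was 34.6% and 31.9% in WT, versus 3.82% and 5.43% in KO, which gives a ratio of 0.139. In the right flank it was 44.7% and 40.03% in WT, versus 3.62% and 3.30% in KO, which gives a ratio of 0.0818. The 3 Mb as a whole had 18.6% ± 0.608 in WT, versus 13.7% ± 0.737 in KO, which gives a ratio of 0.740, beside 8.78% ± 0.188 and 3.05% ± 0.589 over all chromosomes, a ratio of 0.347. The direction in the zinc finger part turned with the control library: against IgG, a non-specific antibody, it had 13.5% and 13.1% in WT, versus 7.66% and 8.36% in KO, which gives a ratio of 0.601. In bulk samples fewer cells with the mark and less of the mark per cell cannot be told apart.

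Facts of the whole series frame these values. The read depth behind the lists is unknown. Setd2 itself had 66.4% and 60.5% of its span covered in WT, versus 0.690% and 1.70% in KO, which says nothing of its exons. Of 20 stromal marker genes 16 had at least 10% coverage in both WT libraries, as had 8 of 10 haematopoietic and 1 of 6 endothelial markers, with mean WT coverage of 45.9% ± 1.33, 30.3% ± 5.89 and 6.12% ± 1.60. Mean KO coverage of the 3 lists was 3.33% ± 0.936, 4.63% ± 3.34 and 4.95% ± 1.19, and the part of other cell types in the values below was not tested.

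Set against equal bins of 3 Mb along all chromosomes, this stretch ranked 1 of 890 by mean KO coverage, and 95 by WT coverage. The next, on chromosome 5 from 94 to 97 Mb, had 8.49% in KO. Against IgG the region also ranked 1, with 6.87% in KO. Because the bins were laid so that the region fills 1 of them, these ranks describe the region as chosen. In each KO library its coverage was 5.02 and 4.11 times that of all chromosomes, and in each WT library 2.13 and 2.10 times. The 3 Mb are 0.110% of the sequence considered, held 0.287% of the bases covered in both WT libraries and held 1.78% of the bases covered in both KO libraries.

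**Figure D1:**
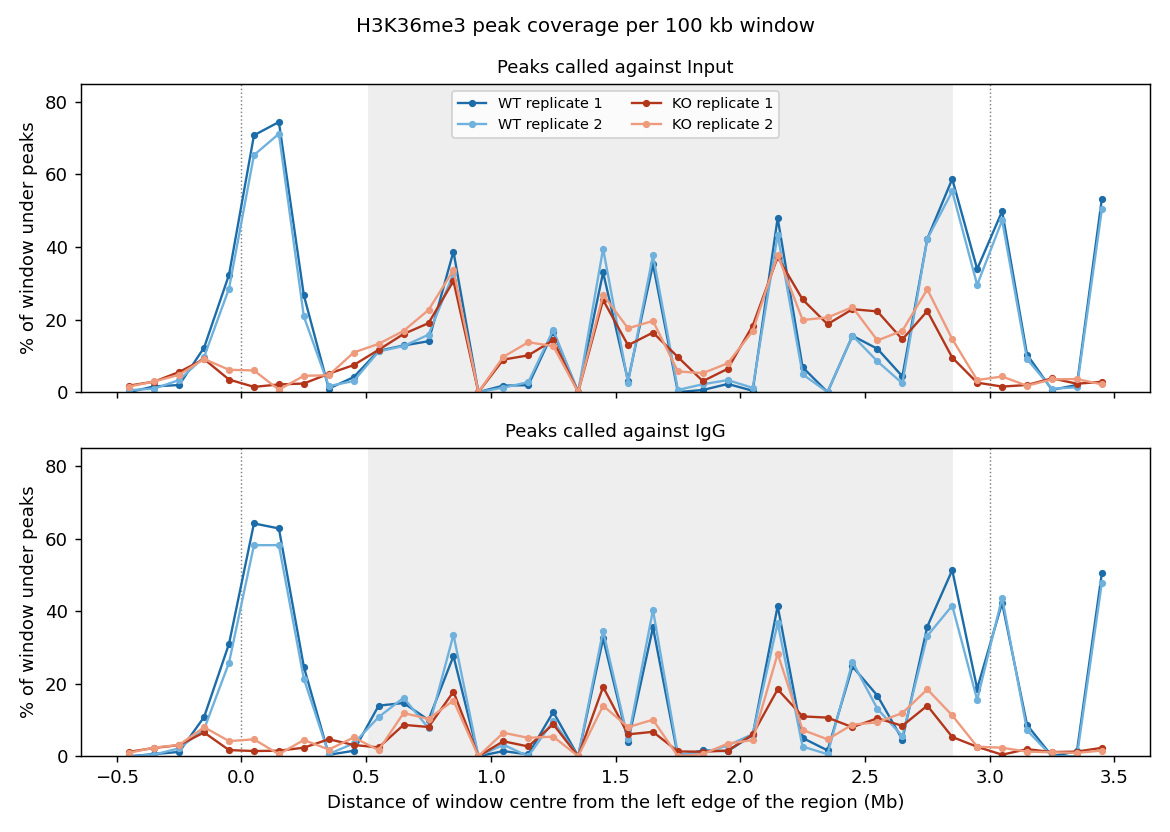
Percent of each 100 kb window under H3K36me3 peaks (y axis) against the distance of the window's centre from the left edge of the region in Mb (x axis), for peaks called against Input (top) and IgG (bottom); each line is 1 library, the grey band is the zinc finger part and dotted lines are the edges of the region. In the zinc finger part KO lines reach 37.2% and 37.8% at their highest. The window centred just past its right end has 14.6% in KO replicate 2, and the other KO points outside it stay under 11%.

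The 30 windows of 100 kb show where the mark lay. Both KO libraries had at least 10% coverage in 17 windows, all of which overlap the zinc finger part, beside 115 of 27212 windows over all chromosomes (0.423%). At 20%, they were 5 of the 10 such windows in the genome (0.0367% of all windows). The highest was 147.1 to 147.2 Mb, which holds Zfp991, with 48.0% and 43.4% in WT, versus 37.2% and 37.8% in KO. Next came 145.8 to 145.9 Mb with the pseudogene Znf41-ps, at 38.7% and 32.7% in WT, versus 30.6% and 33.6% in KO, where the groups overlapped. The window from 147.3 to 147.4 Mb was bare in WT and had 18.7% and 20.6% in KO. The windows from 147.0 to 147.8 Mb formed a run of 8 above 10% in KO, a length matched by 1 other run, on chromosome 5 from 94.4 to 95.2 Mb.

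By order of the libraries, KO lay above WT in 17 windows of the region and below it in 10, and 3 windows overlapped. Over all chromosomes 42.4% of windows had KO above WT and 31.9% had KO below WT. Of the 3 windows that overlapped, 2 (145.9 to 146.0 Mb and 146.3 to 146.4 Mb) had no peak in any of the 8 lists, as had 4.57% of all windows. Across the 22 windows that overlap the zinc finger part and had a peak, coverage in KO went with coverage in WT only in part. Spearman's rho was 0.503 for the replicates numbered 1 and 0.539 for those numbered 2, beside 0.982 within WT and 0.886 within KO. Over all 28 windows of the region with a peak, these values were 0.0840 and 0.166, beside 0.985 within WT and 0.927 within KO. These windows share libraries and neighbours, so the values are descriptions. At the edges, the windows just inside had 70.8% and 65.3% in WT, versus 1.43% and 5.97% in KO on the left, and 33.9% and 29.5% in WT, versus 2.60% and 3.32% in KO on the right. The windows just outside had 32.3% and 28.5% in WT, versus 3.45% and 6.15% in KO on the left, and 49.8% and 47.3% in WT, versus 1.52% and 4.30% in KO on the right. A single member crosses an edge, a peak of WT replicate 2 with a score of 33.3 (chr4:147999275-148000017).

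Among the 17 zinc finger genes, 5 were well covered in WT, with KO means of 32.4% to 83.8% of the WT means. These were Zfp984, Zfp991, Zfp992, Zfp933 and Zfp982, and each had both KO libraries below both WT libraries. Of the zinc finger genes, 7 had a mean of at least 10% over the 4 libraries, so these are 5 of 7, beside 94.8% of all protein-coding genes past this filter, and 5 of 17 without the filter, beside 54.4%. Both KO libraries had at least 10% in 12 of the 17, beside 1.95% of all protein-coding genes and 22.0% of the 463 zinc finger genes elsewhere. Zfp991 (48.5 kb) had 78.6% and 77.9% in WT, versus 37.7% and 46.6% in KO. Zfp984 (58.3 kb) had 79.4% and 78.5% in WT, versus 34.3% and 42.4% in KO. Both genes thus had tight WT values and KO values above 34%. Zfp992 (20.4 kb) had 63.03% and 78.3% in WT, versus 47.7% and 43.3% in KO, the highest KO mean of its protein-coding genes (45.5% ± 3.17). Zfp933 (26.1 kb), the last gene of the cluster, had 66.3% and 63.5% in WT, versus 11.8% and 30.2% in KO. Its KO libraries lay far apart (21.04% ± 12.99). Zfp982 (73.0 kb) had the smallest gap, with 32.4% and 29.1% in WT, versus 25.01% and 26.5% in KO.

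Among the 13962 protein-coding genes of at least 10 kb, ordered by mean KO coverage, Zfp992 came 3, Zfp991 came 5 and Zfp984 came 9, and 9 genes of the region were among the first 100. Of all 6987 protein-coding genes of at least 10 kb with at least 25% mean WT coverage, the KO mean was at least 30% of the WT mean in 111 (1.59%), and these included all 5 of the zinc finger genes above. Of zinc finger genes elsewhere 51 of 310 did (16.5%), with a median of 12.3%, beside a median of 53.8% for the 5 genes and 5.01% for all. Gm51425, on chromosome 17 and no member, had 61.0% and 53.0% in WT, versus 34.8% and 46.0% in KO.

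**Figure D2:**
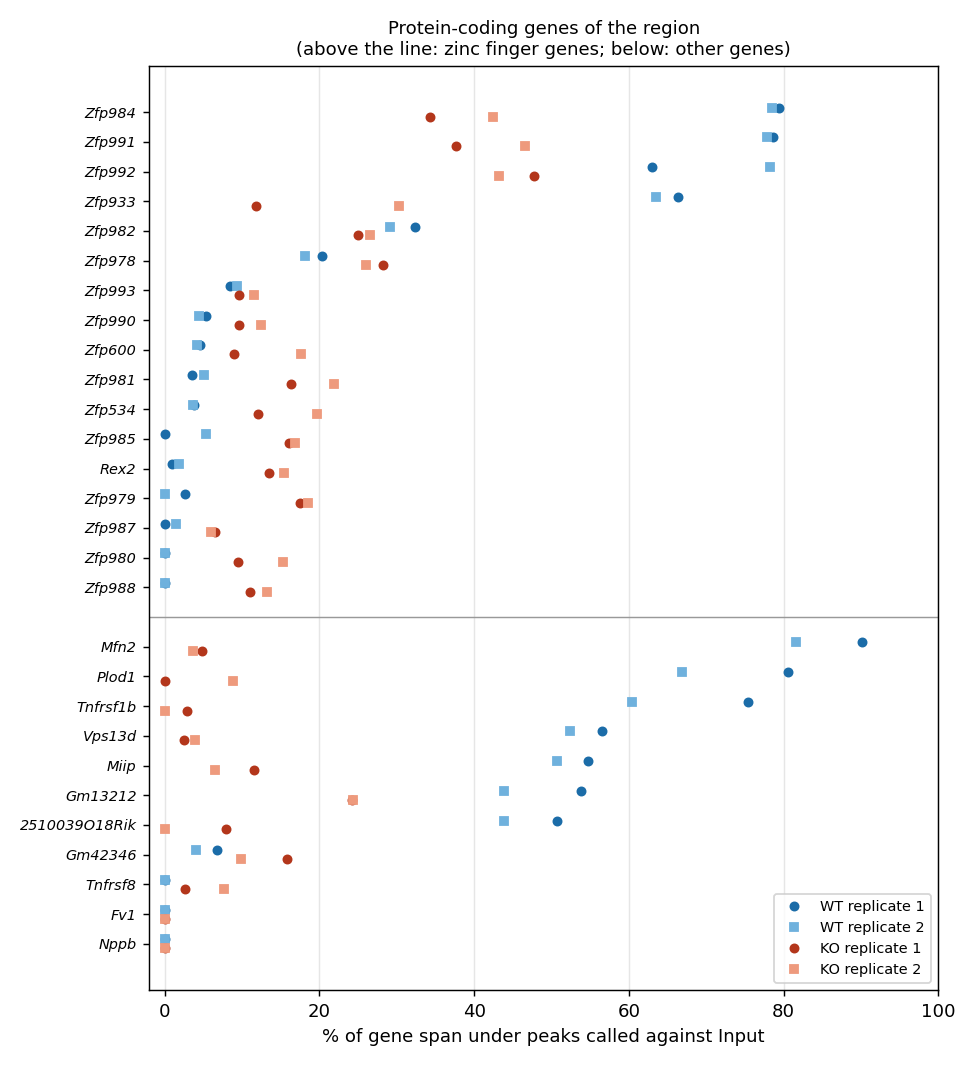
Percent of each protein-coding gene's span under peaks called against Input (x axis), one row per gene, with WT libraries in blue and KO libraries in red; zinc finger genes are above the line and other genes below it, each ordered by mean WT coverage. From Zfp978 down, the KO points of the zinc finger genes lie to the right of the WT points, whereas Mfn2, Plod1, Tnfrsf1b, Vps13d, Miip and 2510039O18Rik have KO points under 12%.

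The other 12 zinc finger genes had little coverage in WT, from 0% to 19.2% with a median of 3.20%, and more in KO, from 6.24% to 27.2% with a median of 13.9%. Both KO libraries lay above both WT libraries in 12 of the 17 zinc finger genes, beside 10.4% of all protein-coding genes. These are the same 12, since the 5 genes set apart above are those with KO below WT. The share among protein-coding genes with equally low WT coverage was not taken. Of the 12 genes, 2 had a mean of at least 10% over the 4 libraries, Zfp978 and Zfp981. They are 2 of the 7 zinc finger genes past that filter, beside 0.731% of all protein-coding genes past it. Rex2, named for reduced expression, had 0.932% and 1.89% in WT, versus 13.5% and 15.4% in KO. Zfp979, listed in RefSeq also as Ssm1b, a strain-specific modifier of transgene methylation, had 2.66% and 0% in WT, versus 17.5% and 18.6% in KO. Zfp981 had 3.48% and 5.01% in WT, versus 16.3% and 21.9% in KO. Against Input, the KO values of each of these 3 genes thus lay more than 10 points above its WT values. Against IgG the groups overlapped in Rex2, with 5.94% and 5.75% in WT, versus 2.93% and 5.84% in KO. They also overlapped in Zfp979, with 4.87% and 10.2% in WT, versus 5.83% and 7.32% in KO. Zfp981 kept KO above WT against IgG, with 9.58% and 7.76% in WT, versus 14.5% and 19.6% in KO.

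Zfp988 and Zfp980 had no WT peak and had 10.96% and 13.2%, and 9.46% and 15.3%, in KO. Zfp985 had 0% and 5.34% in WT, versus 16.0% and 16.9% in KO, and Zfp534 had 3.84% and 3.60% in WT, versus 12.1% and 19.7% in KO. The lowest KO values were those of Zfp987, at 6.47% and 6.00% beside 0% and 1.47% in WT. Zfp600 had 4.55% and 4.16% in WT, versus 8.98% and 17.6% in KO, and Zfp990 5.37% and 4.46% in WT, versus 9.61% and 12.4% in KO. The KO values of Zfp600 lay further apart than those of Zfp990. This order of KO above WT held against IgG in 6 of the 12 genes (Zfp980, Zfp987, Zfp981, Zfp988, Zfp985 and Zfp534), overlapped in 5 and turned in Zfp993, where IgG gave 8.70% and 10.2% in WT, versus 3.14% and 4.40% in KO. Without the lower-scoring peaks of each list (those under its median), 3 genes had this order. The share of all protein-coding genes with this order was not taken against IgG or after that filter, so these counts have no general rate beside them.

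Some spans overlap, so not all of these genes are separate measurements. Zfp978 (267 kb) contains Zfp991 and Zfp988, and its 20.3% and 18.1% in WT, versus 28.3% and 26.0% in KO include their peaks. In the 190 kb of Zfp978 outside them, coverage was 8.50% and 5.52% in WT, versus 28.5% and 22.7% in KO. Zfp993 (479 kb), with 8.40% and 9.29% in WT, versus 9.63% and 11.5% in KO, overlaps Zfp981 and Rex2. In its own 434 kb the groups overlapped, with 9.08% and 10.1% in WT, versus 9.62% and 10.2% in KO. These 434 kb contain the pseudogene LOC115486238 (101 kb) and include its peaks. That pseudogene had 34.8% and 37.2% in WT, versus 14.9% and 17.6% in KO. Against IgG, where the order of Zfp993 turned, the pseudogene had 33.6% and 36.6% in WT, versus 5.23% and 9.94% in KO. The values of Zfp993 are thus not those of the gene alone. The 10.8 kb of Zfp981 that Zfp993 does not cover also overlapped between the groups, with 4.72% and 17.3% in WT, versus 16.4% and 5.74% in KO. Rex2 outside Zfp993 (69.3 kb) had 1.17% and 1.23% in WT, versus 17.0% and 15.01% in KO.

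The 11 other protein-coding genes fall into 2 sets. Most of those at the flanks had little coverage in KO. Mfn2, which fuses mitochondria, had 90.1% and 81.6% in WT, versus 4.87% and 3.65% in KO. Plod1, a lysyl hydroxylase of collagen, had 80.6% and 66.9% in WT, versus 0% and 8.86% in KO. Tnfrsf1b, a receptor of tumour necrosis factor, had 75.4% and 60.4% in WT, versus 2.90% and 0% in KO. In each of these genes the KO values were under 10% and far below WT.

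Vps13d, a lipid transfer protein whose gene crosses the left edge of the region, had 56.5% and 52.4% in WT, versus 2.48% and 3.94% in KO. Miip had 54.7% and 50.7% in WT, versus 11.6% and 6.53% in KO, but against IgG its WT values were 9.02% and 9.41%. 2510039O18Rik had 50.7% and 43.8% in WT, versus 7.91% and 0% in KO. Tnfrsf8 (CD30), a receptor of activated lymphocytes, had no WT peak and 2.68% and 7.63% in KO, and the retrovirus restriction gene Fv1 and the natriuretic peptide gene Nppb had no peak in any list. Just outside the region, Dhrs3, a retinal reductase on the left, had 67.5% and 60.4% in WT, versus 3.03% and 3.61% in KO. Its span lies within that of Vps13d, so the values of Vps13d include its peaks. Nppa on the right had no peak.

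The other set is Gm13212, which lies among the zinc finger genes, and Gm42346, which lies in the left flank beside them. Neither has a descriptive name, and since genes were sorted by symbol, whether they code for zinc fingers was not checked. If they do, they belong with the 17 genes. Gm13212, whose start resembles that of Zfp984, had 53.8% and 43.9% in WT, versus 24.2% and 24.3% in KO, a KO mean of 49.7% of the WT mean. Gm42346 had 6.73% and 4.00% in WT, versus 15.8% and 9.91% in KO. Against IgG its groups overlapped, whereas Gm13212 had 60.1% and 55.4% in WT, versus 12.3% and 12.5% in KO. Against Input both had KO means over 10%, as none of the other 9 had. Of the 11 genes 7 had KO below WT, beside 54.4% of all protein-coding genes, 2 had KO above WT, beside 10.4%, and 2 had no peak.

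Pseudogenes were covered in KO as well. Znf41-ps (42.5 kb, 145789515 to 145831978) had 85.3% and 80.4% in WT, versus 37.2% and 42.9% in KO, close to the values of Zfp991. The pseudogenes named here were picked with their values in view. The pseudogenes of vomeronasal receptors, a family of pheromone receptors, span long stretches here. Vmn2r-ps15 had 1.79% and 2.87% in WT, versus 18.6% and 17.3% in KO, and Vmn2r-ps17 had 1.96% and 1.89% in WT, versus 12.6% and 13.5% in KO. Both orders were the same against IgG, where Vmn2r-ps15 had 2.03% and 3.09% in WT, versus 9.54% and 10.3% in KO. The span of Vmn2r-ps17 contains Zfp600, and that of Vmn2r-ps16 contains Zfp992 and Zfp981. Their values thus include the peaks of those genes and are not separate measurements. Vmn2r-ps16, the longest of the vomeronasal pseudogenes (160 kb), had 14.7% and 16.1% in WT, versus 23.1% and 24.9% in KO. Its order turned against IgG, with 14.3% and 16.9% in WT, versus 13.5% and 11.2% in KO. Of the 64 pseudogenes and non-coding genes, 21 had KO above WT, beside 9.40% of all such genes. KO lay below WT in 2, and 41 overlapped, 15 of them with no peak against Input. For these other orders the share of all such genes was not taken. Bases in pseudogenes or non-coding genes only (294 kb) had 16.1% ± 0.617 in WT and 21.2% ± 0.422 in KO. Bases in zinc finger genes (1227 kb) had 16.4% ± 0.00380 and 18.02% ± 1.10, those in other protein-coding genes (434 kb) had 55.5% ± 4.27 and 6.08% ± 0.519, and those in no annotated gene (1045 kb) had 6.51% ± 0.203 and 9.81% ± 0.492. KO peaks thus lay over zinc finger genes, pseudogenes and the space between them. Against IgG, KO lay below WT in each of these 4 classes, with 15.9% and 15.4% in WT, versus 8.73% and 9.502% in KO, for the bases in zinc finger genes.

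The KO peaks of the region were wide for their lists. In KO, 16 of 504 and 19 of 499 peaks were wider than 2 kb, which is 3.17% and 3.81%, beside 0.0742% and 0.0690% of all peaks of those lists. The region therefore held 17.6% and 17.3% of all KO peaks wider than 2 kb. In WT, 22.6% and 20.4% of the peaks of the region were wider than 2 kb, beside 8.61% and 7.57% of all peaks of those lists. The authors' score of a peak had a median of 26.4 and 25.05 over the KO peaks of the region, under the medians of 44.3 and 35.2 of the whole lists, and 42.3 and 45.7 in WT, above the medians of 35.7 and 36.6. Against IgG the KO medians were 19.03 and 19.9 in the region, beside 19.9 and 18.4 in the lists, so the region had the lower median in both KO libraries against Input and in 1 against IgG. The region held 17.4% and 9.86% of the KO peaks wider than 2 kb against IgG.

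The widest KO peak covered 5340 bp of Zfp992 (chr4:146453795-146459134, score 219.0) in KO replicate 1. WT replicate 2 covered 97.7% of it, KO replicate 2 covered 38.1% and WT replicate 1 none. The second, 4505 bp in no annotated gene between Zfp978 and Zfp982 (chr4:147400502-147405006), was covered to 99.6% in KO replicate 2, whose peaks there began at 147398816, and held no WT peak against Input. Against IgG, the longest stretch of it covered in both KO libraries (2527 bp) had no KO peak, and WT replicate 1 covered 69.4%. The KO peak there was thus called against Input only. In KO replicate 2 the highest score, 119, belonged to a peak in Zfp984 (chr4:147786149-147788140) that WT replicate 2 covered in full, WT replicate 1 to 99.5% and KO replicate 1 to 83.4%.

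A larger share of KO bases was common to both KO libraries here than over all chromosomes, where KO coverage was lower. In the region, 36.9% of the covered bases of KO replicate 1 were covered in KO replicate 2, and 34.2% the other way round, beside 11.5% and 8.73% over all chromosomes. For WT the shares were 73.5% and 77.0%, beside 60.2% and 62.1%. Overlap grows with coverage, and these shares were not adjusted for it. KO coverage was 13.2% and 14.3% in the region, beside 2.63% and 3.47% over all chromosomes. The larger shares therefore do not show that positions recurred more than coverage alone would give. In the zinc finger part, 37.0% and 45.3% of the bases covered in both WT libraries lay under KO peaks of replicate 1 and 2, beside 12.3% and 12.3% of the bases in no WT peak. Over all chromosomes these values were 5.31% and 6.55% beside 2.30% and 3.08%. Against IgG they were 25.1% and 28.6% beside 5.02% and 5.45% in the zinc finger part. KO peaks there were thus denser on bases that WT covered, with each control.

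**Figure D3:**
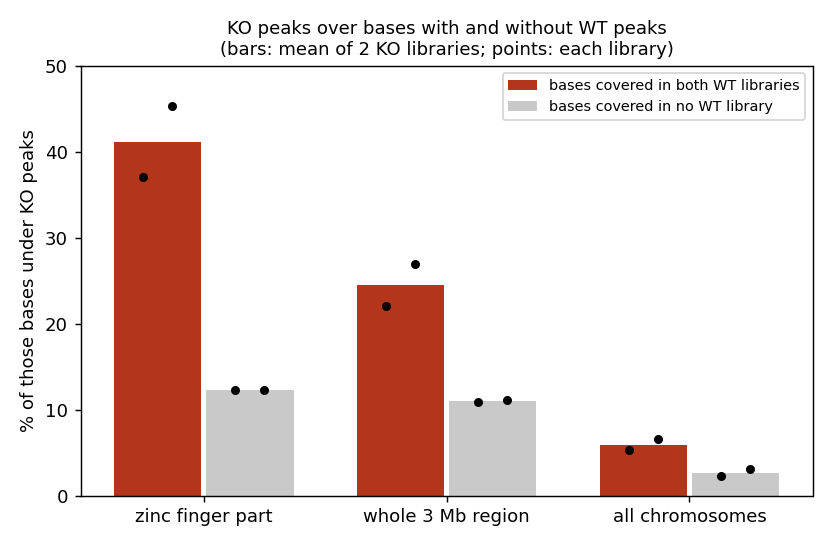
Percent of bases under KO peaks called against Input (y axis), for bases covered in both WT libraries (red) and in no WT library (grey), in the zinc finger part, the whole 3 Mb region and all chromosomes; bars are means of the 2 KO libraries and points are single libraries. In the zinc finger part the red points sit at 37.0% and 45.3% and both grey points at 12.3%.

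Of the bases covered in both KO libraries, 146 kb in the region, 33.4% were covered in both WT libraries and 51.4% in neither, beside 19.4% and 62.8% over all chromosomes. Mean WT coverage was 18.6% in the region, beside 8.78% over all chromosomes. These shares were not adjusted for it, so they do not show closer agreement of KO with WT here. There were 98 stretches covered in all 4 libraries, 37 of them of at least 500 bp. The longest was 2421 bp across the right end of Zfp992 (chr4:146468397-146470817), followed by 1750 bp in Zfp978 just past Zfp991 (chr4:147180775-147182524) and 1599 bp across the right end of Znf41-ps (chr4:145830968-145832566). All 3 were also covered in full in the 4 IgG lists. Stretches covered in both KO libraries and in no WT library numbered 162, 56 of them of at least 500 bp, and of the 3 longest of these, 1 was covered in a KO library against IgG. The 3 longest stretches of each kind thus differed in how they fared against IgG, but shorter ones did not split as cleanly. A stretch of 1327 bp in Zfp984, covered in all 4 libraries, had no IgG peak in WT replicate 2 or KO replicate 1. A stretch of 1544 bp in Zfp978, covered in both KO libraries and no WT library, was covered in full in KO replicate 1 against IgG.

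Along Mfn2 and Zfp984, as on average elsewhere, WT coverage was higher at the end of the gene than at its start, and along Vps13d it was lower. Each gene was split into 5 equal parts from its start to its end, where the promoter table gives its strand. In Mfn2, WT replicate 1 went from 70.8% in the first part to 97.2% in the last. In Vps13d, which reaches beyond the region, WT had 81.7% and 74.6% in the first part and 42.7% and 39.4% in the last. That last part contains the span of Dhrs3 and includes its peaks, and the part before it had 15.6% and 12.1%. In Zfp984 WT replicate 1 went from 54.3% to 91.6%, and KO went from 21.7% and 28.3% in the first part to 54.2% and 57.0% in the last. The last part of Zfp984 was thus the most covered in both KO libraries, but KO coverage did not rise steadily along the gene. The parts between had 50.0%, 34.2% and 11.7% in KO replicate 1, and 41.1%, 35.7% and 49.9% in KO replicate 2. Zfp933 had 0% in the first part in both KO libraries and 25.6% in both in the last, beside 37.7% and 51.7%, and 78.8% and 71.5%, in WT. In Gm13212 KO had 19.7% and 25.6% in the first part and 26.1% and 43.6% in the last. In Zfp982 the KO libraries differed, with 24.3% and 34.2% in the first part and 34.6% and 15.5% in the last. On average over 2024 protein-coding genes elsewhere (at least 20 kb, with a strand and at least 50% WT coverage in both libraries), WT replicate 1 had 35.6% in the first part and 81.1% in the last, and KO replicate 1 had 1.23% and 4.18%.

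**Figure D4:**
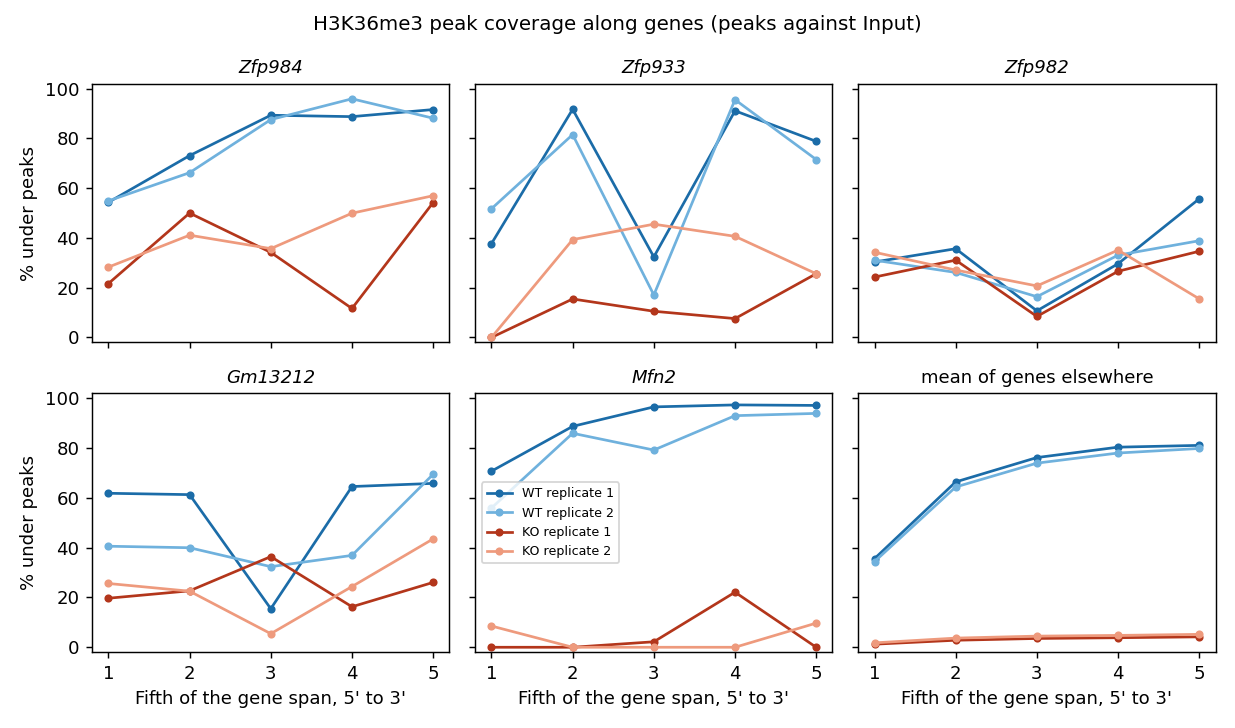
Percent under peaks called against Input (y axis) in 5 equal parts of a gene from its start to its end (x axis), for Zfp984, Zfp933, Zfp982, Gm13212, Mfn2 and the mean of 2024 genes elsewhere; each line is 1 library. The KO lines of Zfp984 end at 54.2% and 57.0%, while those of Mfn2 end at 0% and 9.70% and those of the mean elsewhere stay under 6%.

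With IgG in place of Input, KO coverage here was lower by a larger factor than over all chromosomes. Coverage of the zinc finger part against IgG was 0.482 and 0.495 times that against Input in KO, beside 0.661 and 0.651 times over all chromosomes. The bin next in rank, on chromosome 5, also had far less KO coverage against IgG, with 3.31% and 3.49%, than against Input, with 8.36% and 8.62%. In WT the ratios were 0.971 and 0.955 in the zinc finger part and 0.835 and 0.836 over all chromosomes. Both KO libraries were called against the same Input and the same IgG library, so the replicates are not separate in this respect, and the part of the control libraries in these values was not tested. Against IgG, 4 of the 30 windows had at least 10% in both KO libraries, beside 0.0955% of all windows. Of the 5 well covered zinc finger genes, 4 still had KO below WT, and the share of all protein-coding genes with this order against IgG was not taken. Zfp992 overlapped, with 39.2% and 64.4% in WT, versus 47.4% and 13.4% in KO. Zfp991 had 73.3% and 68.8% in WT, versus 17.8% and 36.5% in KO, and Zfp984 had 66.2% and 52.4% in WT, versus 22.1% and 34.9% in KO.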

How the data were processed

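The aligner was Bowtie2 and the build GRCm38, both per the submitters' processing notes. For each H3K36me3 library the authors deposited a peak list against Input and another against IgG of the same genotype, 8 in all. Peak names start with MACS, per the files; settings of the caller are not known here. The deposited score of a peak, at least 13.01 in the Input lists, was used only within a list. Read depth is unknown.

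Coverage was the percent of a span under the union of a list's peaks, for RefSeq gene spans (GRCm38.p6), 100 kb windows and the region. A planned search for finger motifs in proteins was not run, as no protein table was used here, so zinc finger genes were taken by symbol (starting with Zfp, Zfa, Znf, Zbtb, Zscan, Zkscan, Zik, Zim or Rex2). Strand came from the promoter table. All chromosomes means 1 to 19, X and Y up to the last gene or peak (2722 Mb). The coverage code was tested on simulated intervals in 50 runs without a difference. Tables were made with pandas 2.3.3 and numpy 2.4.6 in Python 3.11.15, rank correlations with scipy 1.17.1 and plots with matplotlib 3.10.9.

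Named were all zinc finger genes, the best covered other genes, the nearest genes outside, Setd2 and Gm51425. Members, lists and rules were chosen with earlier results of these data known. Alternatives were IgG lists, a score filter, merging within 1 kb, leaving out libraries, other bounds, grids, thresholds, filters and scalings.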

Additional observations from a re-analysis of the deposited data

How the results depend on the processing

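With the IgG lists the ratio of KO to WT coverage in the region was 0.411 (WT 16.7%, KO 6.87%), 4 windows had at least 10% in both KO libraries and 6 zinc finger genes had KO above WT. With peaks at or above the median score of their list the ratio was 0.252 (WT 14.4%, KO 3.64%), with 1 window and 3 genes. The ratio turned above 1 between the first and last zinc finger gene (1.19, WT 13.8%, KO 16.4%) and after scaling each library to its coverage of all chromosomes (2.16). Merging peaks within 1 kb gave 20.8% in WT and 15.8% in KO. At a threshold of 20%, 5 windows passed. After scaling to the mean over protein-coding genes no zinc finger gene had KO below WT (0 in place of 5) and all 17 had KO above WT. The share of all protein-coding genes was not taken with the IgG lists, the score filter or this scaling. These counts of genes therefore cannot be set against a general rate. Leaving out 1 library at a time gave a ratio of 0.712 to 0.768, 18.1% to 19.01% in WT, 13.2% to 14.3% in KO, 17 to 19 windows, and 5 genes below and 12 above in each case. The counts of genes with KO above WT were computed after seeing the data. No paired analysis was possible because the results come from no test. Unknown depth limits all values: a place without a peak has no upper limit of its signal.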
